A study of Mus musculus with 10 samples.

Results

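Collagens are the chains that build the fibrous part of connective tissue, and their genes were followed in mouse peritoneum that had been exposed to peritoneal dialysis (PD) fluid. The genes were chosen by name, as every symbol of the count table made of Col, a number, a and a number (Col1a1, Col4a2 and so on), which gave 44 of 21877 symbols. All mice were C57BL/6 males, either Mr1+/+ or Mr1-/-, and were injected in the abdomen with PBS or with the same volume of 4.25% PD fluid, a glucose-rich dialysis solution, for 6 weeks. Mr1 encodes the molecule that presents vitamin B metabolites of microbes to mucosal-associated invariant T cells. The 4 groups were Mr1+/+ with PBS (3 libraries), Mr1+/+ with PD fluid (3 libraries), Mr1-/- with PBS (2 libraries) and Mr1-/- with PD fluid (2 libraries). Neither the age of the mice nor the way the Mr1 allele was made is in the labels. They also do not say which library came from which mouse, so a p-value here reflects the scatter among the libraries at hand, part of which may be technical.

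Each collagen chain is made in the endoplasmic reticulum, hydroxylated on prolines and lysines, wound with partner chains into a helix, secreted, trimmed and crosslinked outside the cell. Fibrillar collagens form the cables of connective tissue, type IV collagens the sheet of basement membranes, type VI collagens fine beaded filaments in the space between, and the smaller families sit on fibrils, in membranes or at the border of vessels. In the peritoneum, the layer beneath the mesothelium thickens with collagen during long dialysis, which is the tissue change that the PD fluid model is used to study.

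Library totals ran from 14145635 to 16335799 counts, of which 35977 to 134811 fell on collagen genes. In 2 groups a pair of libraries was far closer than the others, with a chi-square per gene of 2.23 (Mr1+/+ PBS replicates 1 and 2) and 1.74 (Mr1-/- PD fluid replicates 1 and 2), against 18.6 to 118 for the other 6 pairs within groups. Each such pair was summed and counted as 1 sample, which left 2, 3, 2 and 1 samples in the order of the groups above, and the lone Mr1-/- PD fluid sample was assumed to vary like the others. Mr1 itself had 324 to 524 counts in Mr1+/+ libraries and 29 to 39 in Mr1-/- libraries, a difference of -3.55 on the log2 scale (exact two-sided permutation test over 8 samples, p = 0.0179, the smallest the 56 splits allow). Levels are CPM, the counts of a gene scaled to a common library size by TMM, and a gene was called at a Benjamini-Hochberg adjusted p under 0.05 from edgeR's quasi-likelihood test over 15385 genes. Fold changes are given on the log2 scale with their SE. Of the 44 collagen genes 41 were tested. Col2a1, Col9a1 and Col10a1, chains of cartilage, reached maxima of 3, 8 and 7 counts per library and were not tested. Of the 41 tested, 36 exceeded the level the filter asks for (0.63 CPM) in all 8 samples, and Col19a1, Col9a2, Col26a1, Col24a1 and Col25a1 did so in 5, 5, 4, 1 and 1 samples.

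Collagen reads made up 0.282% and 0.328% of all counts in the Mr1+/+ PBS samples and 0.583%, 0.843% and 0.808% in the Mr1+/+ PD fluid samples. The Mr1-/- PBS samples held 0.308% and 0.252%, and the Mr1-/- PD fluid sample 0.405%. All 3 Mr1+/+ PD fluid samples therefore lay above every other sample, and the Mr1-/- PD fluid sample lay between them and the 4 PBS samples. The group means were 0.305% ± 0.0321 (SD, n = 2), 0.745% ± 0.141 (SD, n = 3), 0.280% ± 0.0402 (SD, n = 2) and 0.405% (n = 1), which is 2.44 times the PBS mean under PD fluid in Mr1+/+ and 1.45 times in Mr1-/-. Fibrillar chains took 39.1% to 39.7% of the collagen reads in the Mr1+/+ PBS libraries and 45.5% to 50.2% of them after PD fluid, and type VI chains 16.4% to 16.7% and then 12.1% to 14.5%. In Mr1-/- the fibrillar share was 37.1% to 41.9% under PBS and 45.1% to 45.3% under PD fluid, and the type VI share 15.0% to 15.3% and 16.2%.

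**Figure D1:**
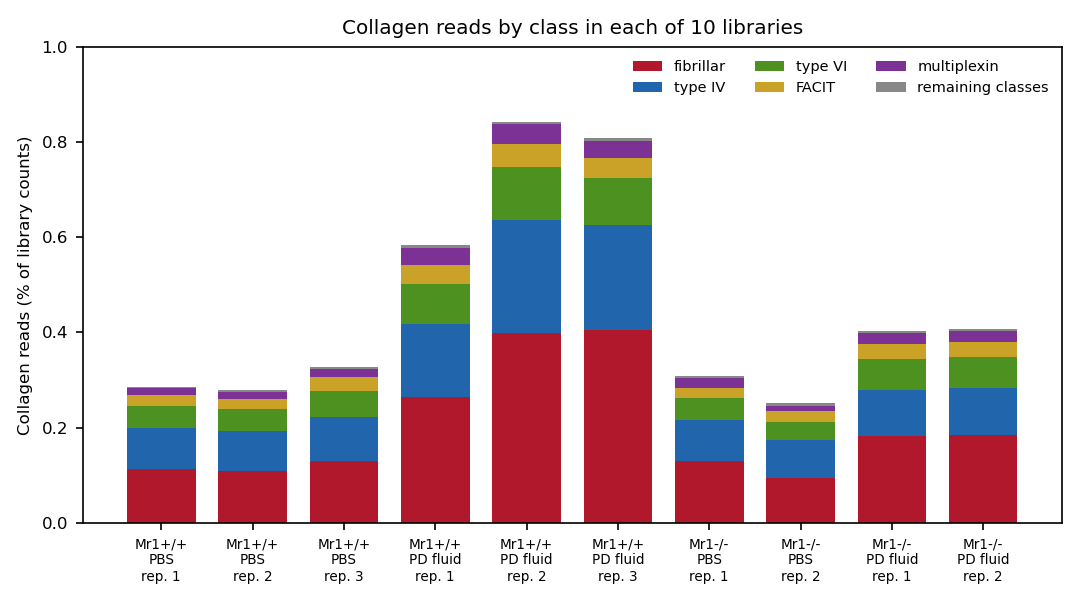
Collagen reads as a percent of all counts (vertical axis) in each of the 10 libraries, stacked by collagen class. The 3 Mr1+/+ PD fluid libraries stand between 0.583% and 0.843%, above the other 7, and within each near-identical pair the bars are of like height.

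10 collagen genes led the levels per kilobase of transcript, the scale on which genes of different length can be compared, and these held 78.0% to 86.5% of the collagen counts of a library. By the mean over the 8 samples they were Col3a1 (167 CPM per kb), Col4a1 (123), Col1a2 (99.5), Col4a2 (75.3), Col6a1 (70.4), Col1a1 (58.2), Col6a2 (33.4), Col14a1 (29.9), Col15a1 (21.1) and Col18a1 (19.2). The basement membrane chain Col4a1 was first in both PBS groups, at 80.6 CPM per kb in Mr1+/+ and 70.8 in Mr1-/-, with the fibrillar chain Col3a1 second at 76.6 and 63.6. Under PD fluid Col3a1 was first in both genotypes, at 311 CPM per kb in Mr1+/+ and 126 in Mr1-/-. In Mr1-/- under PD fluid Col1a2, the second chain of type I collagen, also stood above Col4a1 (87.4 and 85.1 CPM per kb).

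Many collagen genes were higher after PD fluid in Mr1+/+ peritoneum. By edgeR's quasi-likelihood test 20 of the 41 tested collagen genes were higher and 1, Col6a4, was lower, which is 51.2% of them, against 14.9% of all tested genes (8.49% higher and 6.37% lower). The median log2 fold change of the 41 was 1.13, against -0.06 over all genes. In 25 of them (61%) all 3 PD fluid samples lay above both PBS samples, against 25% of all genes, or in 24 without Col24a1, which passed the filter through 1 PD fluid sample. In 2 (4.88%), Col6a4 and Col9a3, all lay below, against 25.6%. All of the 10 genes with the highest level per kilobase were called higher, then 5 higher and 1 lower of the next 10, 3 of the next 10 and 2 of the remaining 11 tested. In that order the median log2 fold changes were 1.29, 0.95, 0.34 and 0.77. Among the 20 risen genes Mr1+/+ PD fluid replicate 1 had the lowest of the 3 PD fluid levels in 19, all but Col4a6. The calls depended on which PD fluid samples were in the fit: without Mr1+/+ PD fluid replicate 2 the test called 4 genes (Col1a2, Col5a1, Col5a2 and Col6a1) and 2.21% of all genes, and without replicate 3 it called 0 collagen genes and 0 genes in all, with 24 collagen genes and 23.5% of all genes at an unadjusted p under 0.05 and a smallest adjusted p of 0.0576 among collagen genes. All 21 called genes kept their direction in both of those fits. That adds no support, since in none of the 21 did a PD fluid sample overlap a PBS sample.

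**Figure D2:**
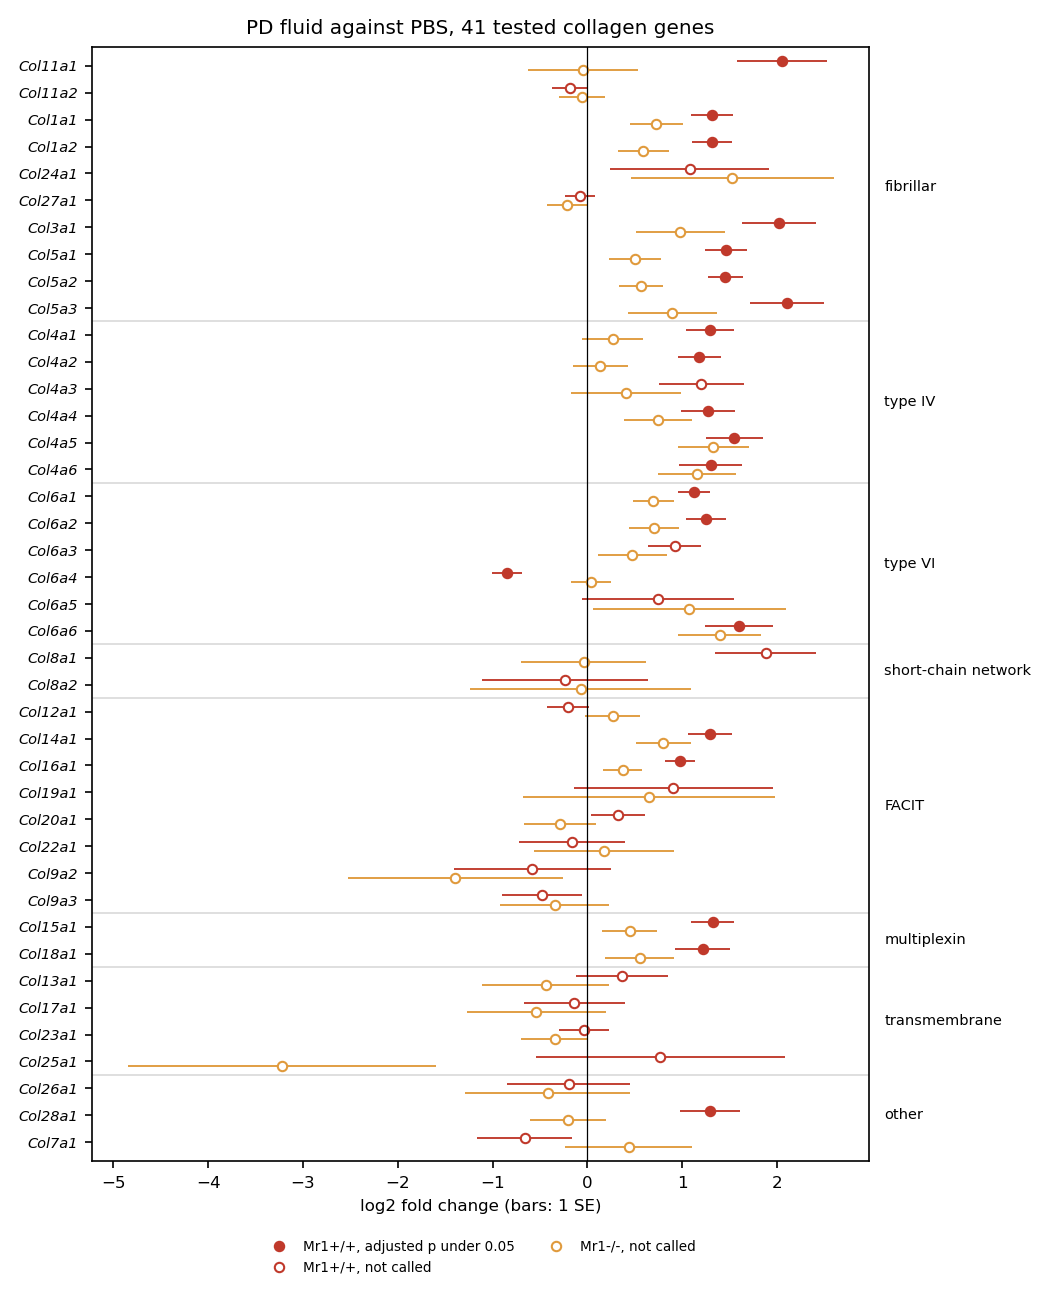
Log2 fold change of PD fluid against PBS (horizontal axis, bars 1 SE) for the 41 tested collagen genes, grouped by class, in Mr1+/+ and in Mr1-/-. Filled points, 21 in Mr1+/+ and 0 in Mr1-/-, passed an adjusted p under 0.05, and Col6a4 is the filled point left of 0.

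Among the fibrillar chains 7 of 10 tested genes rose in Mr1+/+ (class median 1.39). Col1a1, the main chain of type I collagen, stood at 208 and 229 CPM in Mr1+/+ PBS and 413, 621 and 599.7 CPM in Mr1+/+ PD fluid. In Mr1-/- it was at 216 and 163 CPM under PBS and 313 CPM under PD fluid. The 3 Mr1+/+ PD fluid samples were the highest of the 8, and the rise over PBS was 2.49-fold (log2 1.32 ± 0.22, edgeR adjusted p = 0.0142). Col1a2, its partner chain, was at 318 and 351 CPM in Mr1+/+ PBS and 634, 931 and 934 CPM in Mr1+/+ PD fluid. Mr1-/- levels were 333 and 287 CPM under PBS and 467 CPM under PD fluid. It kept the same order of groups with no overlap in Mr1+/+ and rose 2.49-fold (log2 1.32 ± 0.21, edgeR adjusted p = 0.0129). For Col3a1, the chain of type III collagen found in soft and healing tissue, the levels were 363 and 489.9 CPM in Mr1+/+ PBS and 1086, 2025 and 2083 CPM in Mr1+/+ PD fluid. Without Mr1 the samples stood at 458 and 250.1 CPM under PBS and 699.6 CPM under PD fluid. Replicates 2 and 3 under PD fluid stood near each other and far above replicate 1, which was still above every PBS sample, and the rise was 4.06-fold (log2 2.02 ± 0.39, edgeR adjusted p = 0.0215).

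The 3 type V chains and Col11a1 of type XI, which sit inside type I or type II fibrils and set how thick they become, rose as well. Col5a1 was measured at 67.2 and 76.3 CPM in Mr1+/+ PBS and 146, 234 and 213 CPM in Mr1+/+ PD fluid, and Mr1-/- samples at 64.3 and 55.5 CPM under PBS and 84.9 CPM under PD fluid. Col5a2 was measured at 63.5 and 76.9 CPM in Mr1+/+ PBS and 155, 221 and 202 CPM in Mr1+/+ PD fluid. The Mr1-/- samples had 66.3 and 63.3 CPM under PBS and 95.8 CPM under PD fluid. In both genes the PD fluid samples of Mr1+/+ lay above all others, with rises of 2.75-fold for Col5a1 (log2 1.46 ± 0.22, edgeR adjusted p = 0.0124) and 2.75-fold for Col5a2 (log2 1.46 ± 0.19, edgeR adjusted p = 0.0124). Col5a3, the third and less abundant type V chain, had 31.4 and 51.2 CPM in Mr1+/+ PBS and 117, 206 and 209 CPM in Mr1+/+ PD fluid. In Mr1-/- it was at 48.7 and 28.4 CPM under PBS and 71.8 CPM under PD fluid. Its change of 4.30-fold was the largest among the called collagen genes (log2 2.10 ± 0.39, edgeR adjusted p = 0.0218), and no PD fluid sample of Mr1+/+ overlapped any other sample. Col11a1, a type XI chain best known from cartilage, was scarce, with 0.953 and 2.04 CPM in Mr1+/+ PBS and 4.53, 5.90 and 7.91 CPM in Mr1+/+ PD fluid. Mr1-/- levels were 4.76 and 2.98 CPM under PBS and 3.76 CPM under PD fluid. It rose 4.16-fold in Mr1+/+ (log2 2.06 ± 0.47, edgeR adjusted p = 0.0282), but Mr1-/- PBS replicate 1 reached the level of Mr1+/+ PD fluid replicate 1. Col11a2, Col24a1 and Col27a1 were not called, with log2 fold changes of -0.19 ± 0.18, 1.08 ± 0.84 and -0.08 ± 0.16 (SE). Col24a1 lay at 0.136 to 0.805 CPM in all samples, where few reads stand behind a value, whereas Col27a1 lay at 22.1 to 36.5 CPM.

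The promoters of the 3 called genes with the largest rises in Mr1+/+ are printed below. Each run is the 250 bases before the gene's RefSeq start (GRCm38.p6), 5′ to 3′ on the strand of the gene, and capitals mark the motif CCAAT, which reads ATTGG where it lies on the other strand, and the motif TATAAA on either strand. They lie at chr9:20815068-20815317 (minus strand, Col5a3), chr3:114030290-114030539 (plus strand, Col11a1) and chr1:45311288-45311537 (plus strand, Col3a1), with no base inside an annotated exon.
Col5a3: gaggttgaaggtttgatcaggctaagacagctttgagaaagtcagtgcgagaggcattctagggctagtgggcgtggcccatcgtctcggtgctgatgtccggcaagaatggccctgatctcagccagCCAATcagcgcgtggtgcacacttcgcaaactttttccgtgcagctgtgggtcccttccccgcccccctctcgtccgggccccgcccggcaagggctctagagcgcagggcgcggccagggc
Col11a1: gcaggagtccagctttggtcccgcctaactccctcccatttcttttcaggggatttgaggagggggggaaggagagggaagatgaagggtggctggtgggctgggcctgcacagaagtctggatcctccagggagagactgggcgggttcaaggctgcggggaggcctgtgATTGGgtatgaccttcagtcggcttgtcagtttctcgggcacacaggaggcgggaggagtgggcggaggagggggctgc
Col3a1: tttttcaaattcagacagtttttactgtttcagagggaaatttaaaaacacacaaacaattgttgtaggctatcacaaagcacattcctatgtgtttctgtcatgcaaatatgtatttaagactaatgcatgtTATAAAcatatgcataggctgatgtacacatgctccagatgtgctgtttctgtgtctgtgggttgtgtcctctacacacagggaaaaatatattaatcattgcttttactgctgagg

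Counted back from the start, with -1 the last base before it, Col5a3 held CCAAT from position -122 and Col11a1 its reverse complement from position -79, whereas Col3a1 held no CCAAT but a TATAAA from position -117. CCAAT on either strand was present in this window in 13 of the 35 collagen genes with a RefSeq promoter, 8 of the 17 called higher in Mr1+/+ and 5 of the other 18, against 33.8% of 32817 RefSeq promoters. Those 18 include Col6a4, which fell, and Col9a1 and Col10a1, which were not tested. A gene with more than 1 RefSeq start (Col6a2, Col9a1 and Col18a1) counted if any of its windows held the motif, whereas the share of all is per promoter. TATAAA was present in 5 of the 35, 1 of the 17 and 4 of the 18, against 12.4% of all, and GGGCGG, a GC box, in 21 of the 35, 11 of the 17 and 10 of the 18, against 32.7% of all. Both strands were searched, matches of different motifs may overlap (ATTGG can share bases with GGGCGG), and a match describes the sequence and not a bound site.

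All 6 type IV chains had higher levels under PD fluid in every Mr1+/+ sample, and 5 of the 6 were called (class median 1.28). Col4a1, one of the pair that makes up the common basement membrane network, stood at 501 and 566 CPM in Mr1+/+ PBS and 894, 1583 and 1448 CPM in Mr1+/+ PD fluid. Without Mr1 the samples stood at 487 and 449 CPM under PBS and 563 CPM under PD fluid. The 3 Mr1+/+ PD fluid samples lay above all others, at 2.45 times PBS (log2 1.29 ± 0.25, edgeR adjusted p = 0.0190), while the Mr1-/- PD fluid sample lay within the range of the Mr1+/+ PBS samples. Col4a2, the other chain of that network, was at 318 and 346 CPM in Mr1+/+ PBS and 543, 894 and 822 CPM in Mr1+/+ PD fluid, and Mr1-/- samples at 311 and 310.4 CPM under PBS and 341 CPM under PD fluid. It rose 2.27-fold in Mr1+/+ (log2 1.18 ± 0.22, edgeR adjusted p = 0.0182), and again the Mr1-/- PD fluid sample lay within the Mr1+/+ PBS range.

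The other 4 type IV chains belong to the specialised networks of kidney, skin and smooth muscle and were far scarcer. Col4a5 had 8.92 and 14.2 CPM in Mr1+/+ PBS and 32.3, 34.7 and 34 CPM in Mr1+/+ PD fluid. The Mr1-/- samples had 13.1 and 7.04 CPM under PBS and 25.3 CPM under PD fluid. All PD fluid samples of both genotypes exceeded all PBS samples, and the rise in Mr1+/+ was 2.93-fold (log2 1.55 ± 0.30, edgeR adjusted p = 0.0192). Its head-to-head neighbour Col4a6 had 6.83 and 7.16 CPM in Mr1+/+ PBS and 17.5, 20.1 and 14.2 CPM in Mr1+/+ PD fluid. In Mr1-/- it was at 9.86 and 4.60 CPM under PBS and 16.1 CPM under PD fluid. The Mr1-/- PD fluid sample lay inside the Mr1+/+ PD fluid range, and the Mr1+/+ rise was 2.47-fold (log2 1.30 ± 0.33, edgeR adjusted p = 0.0366), a call that was lost without Mr1+/+ PBS replicate 3 and without any 1 of the 3 PD fluid replicates. Col4a4 was at 2.68 and 3.16 CPM in Mr1+/+ PBS and 6.70, 7.58 and 6.80 CPM in Mr1+/+ PD fluid. Mr1-/- levels were 2.79 and 2.71 CPM under PBS and 4.61 CPM under PD fluid. Its Mr1+/+ PD fluid samples were the highest 3 of 8, with a 2.41-fold rise (log2 1.27 ± 0.28, edgeR adjusted p = 0.0265). Col4a3 was at 1.41 and 1.33 CPM in Mr1+/+ PBS and 2.67, 4.09 and 2.79 CPM in Mr1+/+ PD fluid. Without Mr1 the samples stood at 1.84 and 1.01 CPM under PBS and 1.89 CPM under PD fluid. It was not called (log2 1.20 ± 0.45, edgeR adjusted p = 0.104), although its samples did not overlap in Mr1+/+ and it was called when the 10 libraries were taken as separate samples, a fit that called 24 of 40 collagen genes and 37.5% of all genes.

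Type VI chains moved in opposite directions, with 3 of 6 higher, 1 lower and 2 not called in Mr1+/+. Col6a1, a chain present in every type VI filament, was at 189.8 and 212 CPM in Mr1+/+ PBS and 383, 491 and 440.1 CPM in Mr1+/+ PD fluid, and Mr1-/- samples at 178 and 149.8 CPM under PBS and 265 CPM under PD fluid. Its 2.18-fold rise in Mr1+/+ came with no overlap between groups (log2 1.13 ± 0.17, edgeR adjusted p = 0.0124), and the Mr1-/- PD fluid sample lay above all PBS samples. Col6a2, the second such chain, was at 121 and 149.8 CPM in Mr1+/+ PBS and 259.6, 365 and 339 CPM in Mr1+/+ PD fluid. The Mr1-/- samples had 116 and 88.1 CPM under PBS and 166 CPM under PD fluid. The order of samples was as for Col6a1, and the rise was 2.38-fold (log2 1.25 ± 0.21, edgeR adjusted p = 0.0137). Col6a6, one of the chains that can take the place of Col6a3, had 3.78 and 8.42 CPM in Mr1+/+ PBS and 15.7, 21.9 and 17.3 CPM in Mr1+/+ PD fluid. In Mr1-/- it was at 4.42 and 5.41 CPM under PBS and 13 CPM under PD fluid. All PD fluid samples of both genotypes lay above all PBS samples, and the rise in Mr1+/+ was 3.03-fold (log2 1.60 ± 0.36, edgeR adjusted p = 0.0262).

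Col6a4, a further alternative chain, went the other way, with 42.9 and 50.5 CPM in Mr1+/+ PBS and 28.8, 25 and 23.9 CPM in Mr1+/+ PD fluid. Mr1-/- levels were 36.4 and 33.4 CPM under PBS and 35.7 CPM under PD fluid. The 3 Mr1+/+ PD fluid samples were the lowest of the 8 and both Mr1+/+ PBS samples the highest, a fall to 0.555 times PBS (log2 -0.85 ± 0.16, edgeR adjusted p = 0.0168), while the Mr1-/- samples of both treatments lay between. Col6a3, the third classical chain, was at 89.5 and 108 CPM in Mr1+/+ PBS and 124, 256 and 179 CPM in Mr1+/+ PD fluid. Without Mr1 the samples stood at 89.6 and 82.5 CPM under PBS and 119 CPM under PD fluid. All its Mr1+/+ PD fluid samples exceeded the PBS samples, but the PD fluid samples were spread widely and the gene was not called (log2 0.92 ± 0.28, edgeR adjusted p = 0.0658). Col6a5 varied widely within groups, with 13.8 to 42.6 CPM in the Mr1+/+ PD fluid samples and 31.4 and 6.02 CPM in the Mr1-/- PBS samples, and was not called (log2 fold change 0.75 ± 0.80, SE).

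Of the FACIT collagens, which lie on the surface of fibrils and interrupt the helix with other domains, 2 of 8 tested rose. Col14a1, a fibril-bound chain of tendon and skin, was at 102 and 154 CPM in Mr1+/+ PBS and 259.8, 363 and 317 CPM in Mr1+/+ PD fluid, and Mr1-/- samples at 103 and 84 CPM under PBS and 163 CPM under PD fluid. It rose 2.45-fold in Mr1+/+ (log2 1.29 ± 0.23, edgeR adjusted p = 0.0160), with all PD fluid samples of both genotypes above all PBS samples. Col16a1 was at 24.2 and 28.5 CPM in Mr1+/+ PBS and 46.1, 53 and 56.4 CPM in Mr1+/+ PD fluid. The Mr1-/- samples had 25.1 and 26 CPM under PBS and 33.1 CPM under PD fluid. Its rise was smaller, at 1.97-fold (log2 0.98 ± 0.16, edgeR adjusted p = 0.0130), again with no overlap. Col12a1, another fibril-bound chain of like structure to Col14a1, was at 63.0 to 99.6 CPM over the 8 samples and did not pass the test (log2 -0.21 ± 0.22, edgeR adjusted p = 0.532). The cartilage chains Col9a2 and Col9a3 had log2 fold changes of -0.58 ± 0.83 and -0.48 ± 0.42 (SE), and Col19a1, Col20a1 and Col22a1 of 0.91 ± 1.05, 0.32 ± 0.28 and -0.16 ± 0.56, and none was called.

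Both multiplexins, chains of the border between basement membrane and connective tissue whose ends can be cut off as fragments, rose. Col15a1 was at 75.3 and 81.2 CPM in Mr1+/+ PBS and 163, 225 and 199 CPM in Mr1+/+ PD fluid. In Mr1-/- it was at 101 and 62.6 CPM under PBS and 111 CPM under PD fluid. Col18a1, the source of endostatin, was at 69.8 and 103 CPM in Mr1+/+ PBS and 188, 216 and 196 CPM in Mr1+/+ PD fluid. Mr1-/- levels were 103 and 54.5 CPM under PBS and 115 CPM under PD fluid. The Mr1+/+ PD fluid samples were above all others in both genes, with a rise of 2.50-fold for Col15a1 (log2 1.32 ± 0.23, edgeR adjusted p = 0.0151) and of 2.32-fold for Col18a1 (log2 1.22 ± 0.29, edgeR adjusted p = 0.0327). The call of Col18a1 was lost without any 1 of the 3 Mr1+/+ PD fluid replicates. Col28a1, a rare chain described around peripheral nerve, had 4.86 and 5.76 CPM in Mr1+/+ PBS and 8.37, 15.3 and 15.2 CPM in Mr1+/+ PD fluid. Without Mr1 the samples stood at 11.2 and 9.0 CPM under PBS and 8.77 CPM under PD fluid. It rose 2.45-fold in Mr1+/+ (log2 1.29 ± 0.32, edgeR adjusted p = 0.0329), but both Mr1-/- PBS samples and the Mr1-/- PD fluid sample lay above Mr1+/+ PD fluid replicate 1.

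None of the 4 transmembrane collagens (Col13a1, Col17a1, Col23a1 and Col25a1) was called in Mr1+/+ by edgeR, at an unadjusted p under 0.05 or by DESeq2, and their log2 fold changes ran from -0.14 to 0.77. The short-chain collagen Col8a1, found in vessel walls, was at 1.14 and 3.79 CPM in Mr1+/+ PBS and 7.32, 9.39 and 9.98 CPM in Mr1+/+ PD fluid, and Mr1-/- samples at 6.32 and 3.52 CPM under PBS and 4.80 CPM under PD fluid. All its Mr1+/+ PD fluid samples lay above the PBS samples, and it did not pass the threshold (log2 1.88 ± 0.53, edgeR adjusted p = 0.0503), though it was called in 8 of 16 other settings, DESeq2 among them. Its partner Col8a2 was at 6.49 and 1.54 CPM in Mr1+/+ PBS and 5.89, 2.48 and 2.01 CPM in Mr1+/+ PD fluid. The Mr1-/- samples had 2.52 and 12.1 CPM under PBS and 6.98 CPM under PD fluid. It was not called (log2 -0.23 ± 0.88, edgeR adjusted p = 0.873) and was highest in Mr1-/- PBS replicate 2. That library also had the highest summed level of smooth muscle and pericyte markers, 4815 CPM against 1085 to 1904 CPM in the other 7 samples, and the part of these cells in the Col8a2 level was not tested. Col7a1, the anchoring fibril of skin, and Col26a1 had log2 fold changes of -0.66 ± 0.50 and -0.20 ± 0.65 (SE).

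**Figure D3:**
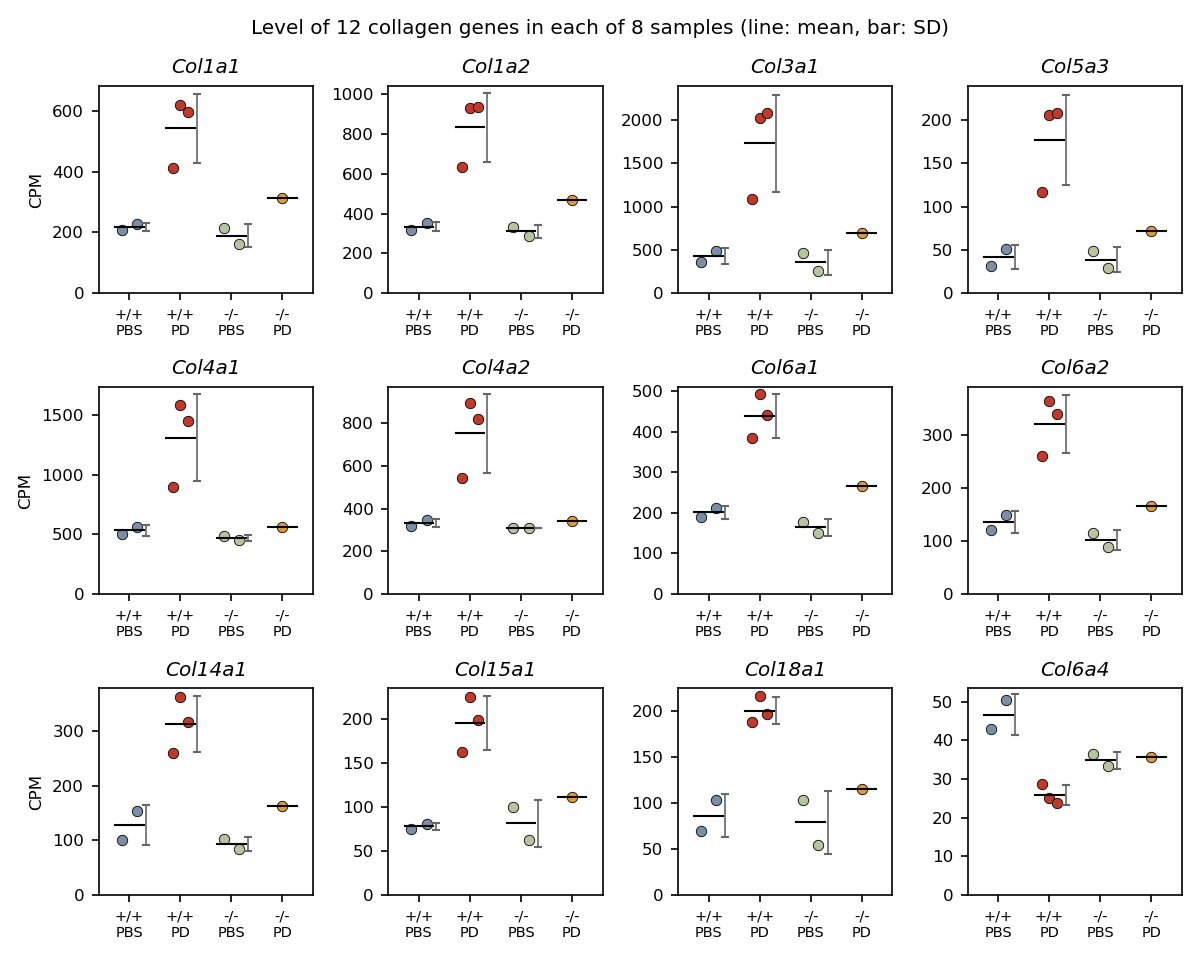
Level in CPM (vertical axes, from 0) of 12 collagen genes in each of the 8 samples by genotype and treatment, with the group mean as a line and the SD as a bar where a group has more than 1 sample. In 11 of the 12 genes the Mr1+/+ PD fluid samples are the highest, and in Col6a4 they are the lowest.

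Chains that share a molecule can be set against each other per kilobase of transcript. Col1a1 stood at 0.589 ± 0.00260 (SD, n = 2) of Col1a2 in Mr1+/+ PBS, 0.589 ± 0.0111 (SD, n = 3) in Mr1+/+ PD fluid, 0.547 ± 0.0513 (SD, n = 2) in Mr1-/- PBS and 0.604 in Mr1-/- PD fluid, and the 10 libraries ran from 0.511 to 0.620. Col4a1 was 1.57 ± 0.0402, 1.68 ± 0.0678, 1.47 ± 0.0829 and 1.61 times Col4a2 in the same groups (SD, same n). Col5a1 stood at 0.808 ± 0.0367, 0.802 ± 0.0533, 0.728 ± 0.0520 and 0.698 of Col5a2, and Col6a1 at 2.19 ± 0.166, 2.01 ± 0.135, 2.37 ± 0.170 and 2.35 times Col6a2. Between type III and type I collagen, Col3a1 was 2.07 ± 0.302 times Col1a1 in Mr1+/+ PBS and 3.33 ± 0.469 times in Mr1+/+ PD fluid, with no overlap between the samples, against 1.95 ± 0.442 in Mr1-/- PBS and 2.38 in Mr1-/- PD fluid. Col6a3 lay at 0.123 to 0.208 of Col6a1 in the 10 libraries, Col4a3 at 0.412 to 0.778 of Col4a4, and Col4a5 at 1.07 to 2.44 times Col4a6. Col8a1 over Col8a2 ran from 0.134 to 4.21 with wide overlap between groups. These ratios are given as descriptions without a test.

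**Figure D4:**
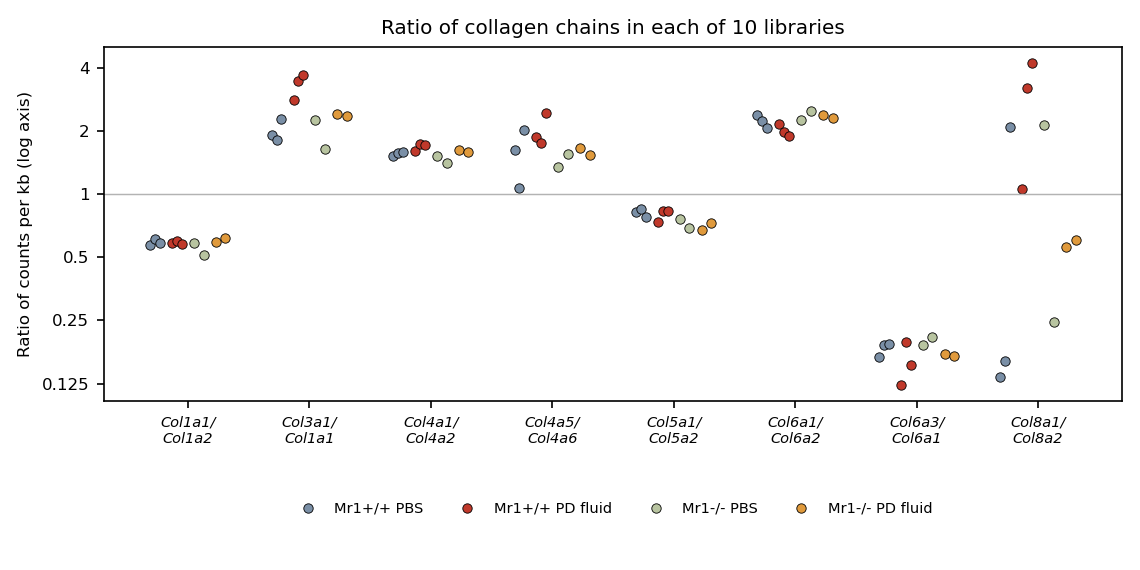
Ratio of the counts per kilobase of 2 collagen chains (vertical log axis) in each of the 10 libraries, coloured by group. Col1a1 over Col1a2 stays between 0.511 and 0.620, Col3a1 over Col1a1 is highest in the 3 Mr1+/+ PD fluid libraries, and Col8a1 over Col8a2 scatters from 0.134 to 4.21.

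Several of these genes are neighbours in the genome (mm10, GENCODE M21). Col4a1 (chr8:11198423-11312826, minus strand) and Col4a2 (chr8:11312805-11449287, plus strand) start head to head, and their 5′ ends overlap by 22 bases. Col4a4 (chr1:82448423-82586849) and Col4a3 (chr1:82586921-82722059) lie head to head with 71 bases between them, and Col4a6 (chrX:141165403-141474076) and Col4a5 (chrX:141475385-141689234) with 1308. Col3a1 (chr1:45311538-45349706) and Col5a2 (chr1:45374321-45503282) lie tail to tail, 24614 bases apart, and both rose in Mr1+/+. Col6a2 (chr10:76595762-76623630) and Col6a1 (chr10:76708792-76726168) follow each other in the same direction. Col6a6 (chr9:105687809-105828160), Col6a5 (chr9:105856078-105960643) and Col6a4 (chr9:105989454-106096783) form a row in 1 direction in which Col6a6 rose, Col6a5 was not called and Col6a4 fell. The type I genes lie on different chromosomes, Col1a1 at chr11:94936224-94953042 and Col1a2 at chr6:4504814-4541544. No strand-marking step is named in the labels, so reads of overlapping genes on opposite strands cannot be told apart. The exons shared with any 1 such gene come to at most 6.07% of a collagen gene (Col9a3 with Tcfl5). For Col6a4 they come to 1.90% with Gm47575 and 1.49% with Gm36993.

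Many genes that process collagen rose in the same Mr1+/+ samples, and 29 of the 52 tested members of 4 lists were called higher, against 8.49% of all genes, and 0 lower by edgeR (0 lower also at an unadjusted p under 0.05 and by DESeq2). Of 21 genes for chain assembly and modification 13 rose, with a median log2 fold change of 0.82. Fkbp14, a prolyl isomerase of the endoplasmic reticulum, was at 7.44 and 8.49 CPM under PBS and 19, 22.9 and 23.3 CPM under PD fluid in Mr1+/+ (log2 1.45 ± 0.20, edgeR adjusted p = 0.0124). P4ha2, a catalytic subunit of prolyl 4-hydroxylase, was at 10.9 and 15.4 CPM under PBS and 26, 30.1 and 29.8 CPM under PD fluid (log2 1.13 ± 0.20, edgeR adjusted p = 0.0153). Sparc, a matrix protein that binds collagen, was at 522 and 672 CPM under PBS and 1364, 2368 and 2226 CPM under PD fluid (log2 1.73 ± 0.30, edgeR adjusted p = 0.0147), and P3h4, a partner of the lysyl and prolyl hydroxylases, at 12.5 and 11.2 CPM under PBS and 25.3, 23.1 and 27.2 CPM under PD fluid (log2 1.08 ± 0.17, edgeR adjusted p = 0.0128). In these 4 genes every PD fluid sample lay above both PBS samples.

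Of 12 tested genes for propeptide removal and crosslinking 7 rose (median 1.13). Pcolce2, an enhancer of the proteinase that trims procollagen, was at 8.95 and 12.4 CPM under PBS and 43.2, 49 and 49.3 CPM under PD fluid (log2 2.15 ± 0.29, edgeR adjusted p = 0.0124), and Pcolce at 47.5 and 39.7 CPM under PBS and 75.9, 105 and 122 CPM under PD fluid (log2 1.21 ± 0.23, edgeR adjusted p = 0.0175). The crosslinking oxidases Lox and Loxl2 were at 8.89 and 15.7 CPM under PBS and 43.2, 49 and 52.8 CPM under PD fluid (log2 1.98 ± 0.34, edgeR adjusted p = 0.0155) and at 20.1 and 24.6 CPM under PBS and 44.6, 52.7 and 47.3 CPM under PD fluid (log2 1.11 ± 0.17, edgeR adjusted p = 0.0124). Again no PD fluid sample overlapped a PBS sample in any of the 4. Of 10 genes listed for collagen breakdown, which include the inhibitors Timp1, Timp2 and Timp3, 6 rose (median 0.93). DESeq2 also called 6 higher, Ctsk, Mmp2, Mmp9 and those 3 inhibitors. Mmp2, a gelatinase, was at 56.4 and 58.1 CPM under PBS and 91.3, 169 and 162 CPM under PD fluid (log2 1.30 ± 0.27, edgeR adjusted p = 0.0235), and the inhibitor Timp1 at 1.32 and 0.632 CPM under PBS and 3.16, 11.1 and 13 CPM under PD fluid (log2 3.17 ± 0.73, edgeR adjusted p = 0.0305). Mmp9, a second gelatinase, and Timp2, a further inhibitor, had log2 fold changes of 1.52 and 0.85 (edgeR adjusted p = 0.0239 and 0.0175). Of 9 tested receptors 3 rose: Mrc2, which takes up collagen for degradation, by 0.99, Itgb1, the common integrin beta chain, by 0.69 and Itga11, an integrin chain for fibrillar collagen, by 1.11 on the log2 scale (edgeR adjusted p = 0.0224, 0.0256 and 0.0414).

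Markers of cell types moved in the same comparison, in which 8.49% of all genes were called higher and 6.37% lower. Summed over 7 fibroblast markers the level was 851 and 898 CPM in the Mr1+/+ PBS samples, 1735 to 2090 CPM in Mr1+/+ PD fluid, 902 and 1106 CPM in Mr1-/- PBS and 1579 CPM in Mr1-/- PD fluid, and 5 of the 7 were called higher by PD fluid in Mr1+/+. The Mr1-/- PD fluid sample lay between the PBS samples and the Mr1+/+ PD fluid samples in this sum, as it did in collagen reads. Within Mr1+/+ PD fluid the orders differed: replicate 1 had the highest fibroblast sum (2090 CPM, against 1735 and 1847 CPM) and the lowest share of collagen reads. Dcn made up 1006 of the 1579 CPM, a level inside its Mr1+/+ PD fluid range (863 to 1365 CPM). Thy1 lay lower in every Mr1+/+ PD fluid sample (137 to 154 CPM) than in both Mr1+/+ PBS samples (158 and 246 CPM). For 6 adipocyte markers the sums were 2178 and 2818, 6366 to 9729, 2463 and 3946, and 3361 CPM in the same groups, with 5 of 6 called higher, and 3 of 5 markers of blood endothelium were called higher (952 and 978 against 1397 to 1670 CPM in Mr1+/+). All 5 B cell markers were called lower (1522 and 2390 against 791 to 904 CPM in Mr1+/+), while in Mr1-/- their sums were 1653 and 1726 CPM under PBS and 1855 CPM under PD fluid. Of the other lists, 2 of 4 T cell markers were called lower (319 and 496 against 188 to 285 CPM), and higher were 2 of 4 macrophage markers (551 and 731 against 898 to 1091 CPM), 3 of 4 erythroid (17.8 and 35.2 against 84.4 to 238 CPM), 1 of 4 liver and 1 of 4 nerve and glia markers. Liver marker sums were 0.246 and 243 CPM in Mr1+/+ PBS and 0.805 to 2.48 CPM in Mr1+/+ PD fluid. In Mr1-/- they were 121 and 74.7 CPM under PBS and 123 CPM under PD fluid. Alb alone was at 0.215 to 2.17 CPM in the Mr1+/+ samples and at 64.1 to 107 CPM in the Mr1-/- samples. Mesothelial markers, which define the surface layer of the tissue, were present in every sample at sums of 158 and 411 CPM, 151 to 406 CPM, 58.7 and 166 CPM, and 288 CPM in the same groups. Their sums overlapped between treatments in Mr1+/+ and were higher in the PD fluid sample of Mr1-/-. Krt19 made up 341 of the 411 CPM in Mr1+/+ PBS replicate 3, against 15.4 CPM in the other Mr1+/+ PBS sample. Wt1, Lrrn4 and Upk1b lay higher in every Mr1+/+ PD fluid sample than in both PBS samples. Msln, Upk3b and Krt19 overlapped, and none of the 6 markers was called in Mr1+/+. Chondrocyte and bone markers were at sums of only 2.72 to 8.85 CPM. Pancreatic acinar markers stood at 18093 CPM in Mr1+/+ PBS replicate 3 (353 CPM in the other PBS sample), at 101, 2275 and 2692 CPM in Mr1+/+ PD fluid replicates 1, 2 and 3, at 476 and 194 CPM in Mr1-/- PBS and at 3532 CPM in Mr1-/- PD fluid. Intestinal markers reached 1459.8 CPM in Mr1+/+ PBS replicate 3 and at most 29.1 CPM elsewhere. Without that replicate Mr1+/+ PBS was left with 1 sample, the summed pair. The median log2 fold change of the tested collagen genes for PD fluid in Mr1+/+ was then 1.34 (all genes 0.01), against 1.13 with it. The tissue was measured in bulk, so more cells of a type and more RNA per cell cannot be told apart, and the part of these cell types in the collagen levels was not tested.

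In Mr1-/- peritoneum most collagen genes had higher values under PD fluid than under PBS, but none was called. By edgeR's quasi-likelihood test 0 of the 41 were called, as were 0% of all genes, and DESeq2 also called 0 of them (0.0715% of all genes). At an unadjusted p under 0.05 there were 8, all higher (19.5% of the 41, against 1.5% of all genes): Col1a1, Col5a2, Col4a5, Col4a6, Col6a1, Col6a2, Col6a6 and Col14a1. The median log2 fold change was 0.41, against -0.01 over all genes, and the PD fluid sample lay above both PBS samples in 24 genes, Col24a1 among them (58.5% against 28.7% of all), and below both in 7 (17.1% against 27.9%). The 7 include Col25a1, which passed the filter only through Mr1-/- PBS replicate 2. Among those 8 the largest values were Col6a6, with 4.42 and 5.41 CPM under PBS and 13.0 CPM under PD fluid (log2 1.40 ± 0.44, edgeR adjusted p = 1), and Col4a5 (log2 1.33 ± 0.37, edgeR adjusted p = 1). Col1a1 gave 0.73 ± 0.28, Col1a2 0.59 ± 0.27 and Col3a1 0.98 ± 0.47 (log2 fold change ± SE). Col4a1 and Col4a2, at 0.27 ± 0.32 and 0.14 ± 0.29, had the smallest values of the 6 type IV chains. Of the 20 genes that rose in Mr1+/+, 18 had a positive value in Mr1-/-, all but Col11a1 and Col28a1. The share over all genes was 46.7%, but that is not a like set, since the 20 were picked by their rise in Mr1+/+. The share among the 1306 genes called higher in Mr1+/+ was not counted. The comparison in Mr1-/- rests on 1 PD fluid sample against 2, and Mr1-/- PBS replicate 2 was below replicate 1 in 18 of those 20 collagen genes.

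Without PD fluid no collagen gene was called between the genotypes. Under PBS 0 of the 41 were called between Mr1-/- and Mr1+/+ by edgeR (0.013% of all genes) and 0 by DESeq2 (1.37%), and 5 (12.2%, against 8.64% of all genes) had an unadjusted p under 0.05. Those were Col11a1 (log2 1.40 ± 0.50, edgeR adjusted p = 0.566), Col28a1 (log2 0.93 ± 0.34, edgeR adjusted p = 0.566), Col27a1 (log2 0.45 ± 0.17, edgeR adjusted p = 0.566), Col25a1 and Col6a4 (log2 -0.42 ± 0.17, edgeR adjusted p = 0.566). Col25a1, a neuronal transmembrane chain, lay at 0.0308 to 1.01 CPM in all samples, and its value rests on Mr1-/- PBS replicate 2, which alone exceeded the filter's level. The type I chains gave -0.21 ± 0.24 for Col1a1 and -0.11 ± 0.22 for Col1a2, and Col3a1 gave -0.27 ± 0.39 (log2 fold change ± SE), a value that turned to 0.10 without Mr1-/- PBS replicate 2. The median over the 41 was -0.11 (all genes -0.02), and it turned to 0.04 without Mr1+/+ PBS replicate 3. The samples did not overlap in 6 genes with Mr1-/- higher and 7 with Mr1-/- lower (14.6% and 17.1%, against 20.5% and 18.1% of all genes). Col25a1 was among the 6, and 5 were left without it.

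Under PD fluid most collagen genes had lower values in Mr1-/- than in Mr1+/+, but none was called by edgeR. By edgeR's quasi-likelihood test 0 of the 41 passed (0.013% of all genes), while 14 (34.1%, against 19.1% of all genes) had an unadjusted p under 0.05, 13 of them lower, against 8.85% of all genes, and Col6a4 higher. DESeq2 called 12, all lower: Col1a1, Col1a2, Col3a1, Col5a1, Col5a2, Col5a3, Col4a1, Col4a2, Col6a1, Col6a2, Col14a1 and Col15a1, which is 29.3% against 6.73% of all genes by the same tool. The median log2 difference was -0.61, against 0 over all genes, and the Mr1-/- sample lay below all 3 Mr1+/+ samples in 26 genes (63.4% against 33.9% of all) and above them in 5 (12.2% against 36%). Of the fibrillar chains, Col5a1 stood at 84.9 CPM in Mr1-/- against 146 to 234 CPM in Mr1+/+ (log2 -1.22 ± 0.28, edgeR adjusted p = 0.145), Col5a2 at 95.8 against 155 to 221 CPM (log2 -1.01 ± 0.24, edgeR adjusted p = 0.145) and Col3a1 at 699.6 against 1086 to 2083 CPM (log2 -1.31 ± 0.49, edgeR adjusted p = 0.217). The type I chains differed by -0.80 ± 0.29 for Col1a1 and -0.83 ± 0.27 for Col1a2 on the log2 scale (SE). Col4a1 stood at 563 CPM against 894 to 1583 CPM (log2 -1.22 ± 0.33, edgeR adjusted p = 0.153) and Col4a2 at 341 against 543 to 894 CPM (log2 -1.14 ± 0.29, edgeR adjusted p = 0.149). Col6a4 was at 35.7 CPM against 23.9 to 28.8 CPM (log2 0.46 ± 0.19, edgeR adjusted p = 0.242). With only the PD fluid groups in the fit 2 genes were called, Col5a1 and Col5a2, and with the 10 libraries as separate samples 14 were, 13 of them lower (5% and 35%, against 3.83% and 22.9% of all genes). The comparison sets 1 sample against 3.

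**Figure D5:**
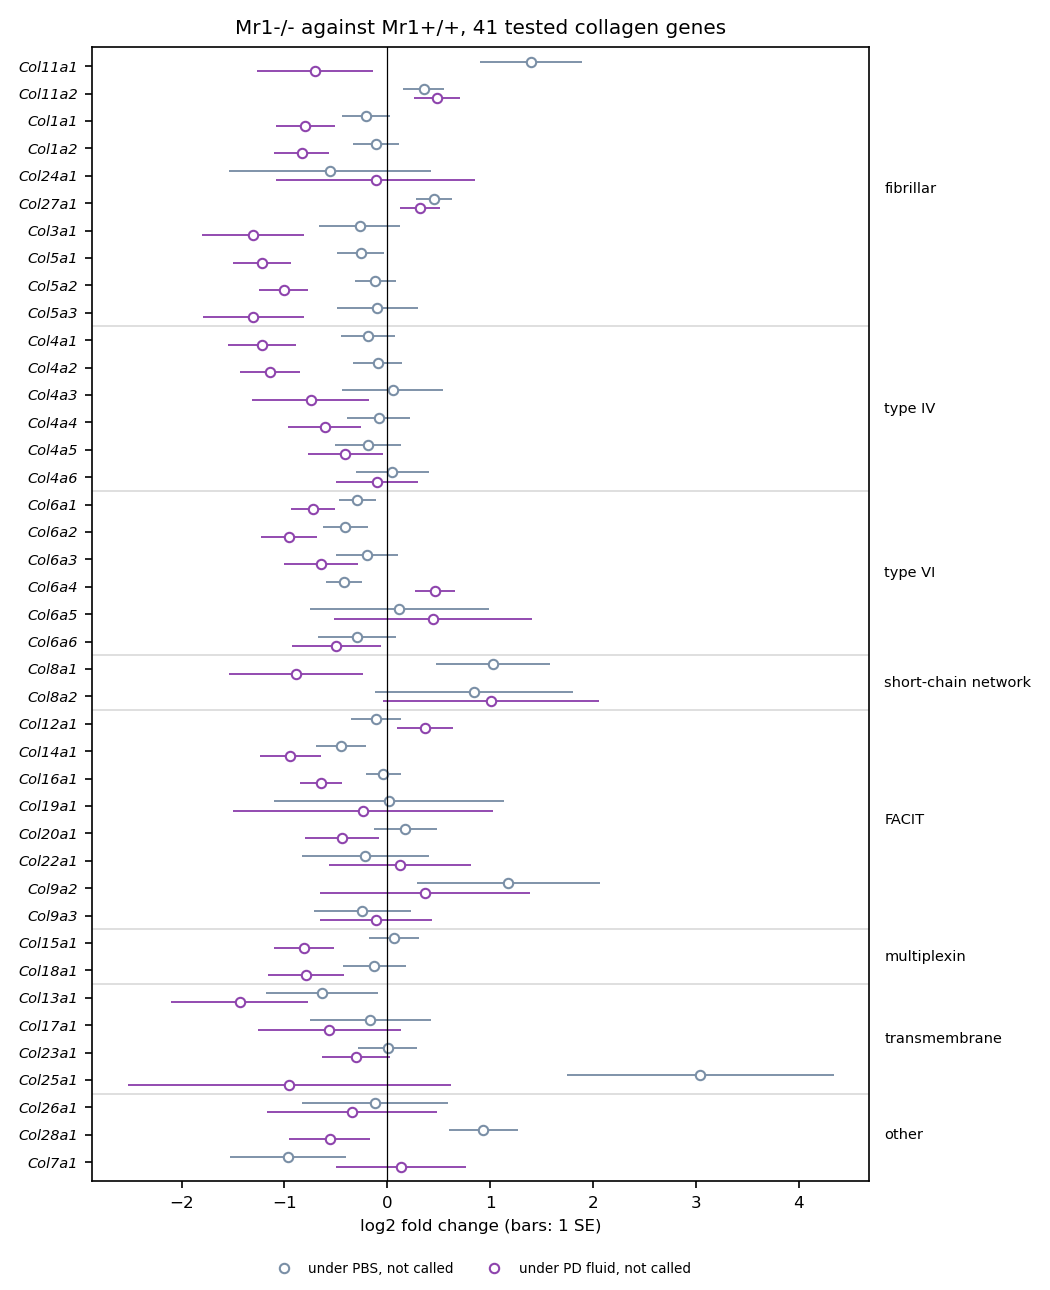
Log2 difference of Mr1-/- against Mr1+/+ (horizontal axis, bars 1 SE) for the 41 tested collagen genes, grouped by class, under PBS and under PD fluid. No gene passed an adjusted p under 0.05 in either comparison, and the median is -0.11 under PBS and -0.61 under PD fluid.

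The difference between the genotypes in their response was tested directly, as the PD fluid change in Mr1-/- minus that in Mr1+/+. By edgeR 0 of the 41 were called (0% of all genes) and by DESeq2 0 (3.17%), and 9 (22%, against 13.2% of all genes) had an unadjusted p under 0.05. In 8 of the 9 the value was negative: Col4a1 (log2 -1.03 ± 0.41, edgeR adjusted p = 0.356), Col4a2 (log2 -1.05 ± 0.37, edgeR adjusted p = 0.319), Col5a1 (log2 -0.96 ± 0.35, edgeR adjusted p = 0.329), Col5a2 (log2 -0.89 ± 0.30, edgeR adjusted p = 0.312), Col11a1, Col15a1, Col16a1 and Col28a1. For Col6a4 it was positive (log2 0.88 ± 0.26, edgeR adjusted p = 0.285), its level falling with PD fluid in Mr1+/+ and moving by 0.04 ± 0.21 on the log2 scale (SE) in Mr1-/-. The type I chains gave -0.59 ± 0.36 (Col1a1) and -0.73 ± 0.34 (Col1a2), and Col3a1 -1.04 ± 0.62 (SE). The median was -0.53, against 0.01 over all genes. A response that was called in Mr1+/+ and not in Mr1-/- was therefore not shown to differ between the genotypes for any collagen gene in this fit, while with the 10 libraries as separate samples 6 genes were called: Col28a1, Col4a1, Col4a2, Col5a1 and Col5a2 lower and Col6a4 higher (15%, against 10.1% of all genes). Those counts treat each near-identical pair as 2 samples.

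The processing genes were compared in the same way. For PD fluid in Mr1-/- edgeR and DESeq2 called 0 of the 52 tested, with 8 at an unadjusted p under 0.05, all higher (1.2% of all genes), 5 of them (Adamts2, Loxl1, Loxl4, Pcolce2 and Tll1) in the list for propeptide removal and crosslinking (list median 0.71). Between genotypes under PD fluid edgeR called 0 and DESeq2 9, all lower in Mr1-/- (Crtap, Fkbp14, Serpinh1, Sparc, Lox, Loxl2, Pcolce, Mmp2 and Mmp9), against 6.73% of all genes called by that tool. At an unadjusted p under 0.05, 19 were lower and 1, Mia3, higher, against 8.85% and 10.2% of all genes. Under PBS edgeR called 0 and DESeq2 1, the collagen receptor chain Itga1 (1.37% of all genes), with 4 higher and 3 lower at an unadjusted p under 0.05 (8.64% of all genes). For the difference in response edgeR called 0 and DESeq2 4, all negative (Fkbp14, Serpinh1, Sparc and Itgb1), against 3.17% of all genes called by that tool. At an unadjusted p under 0.05, 11 were negative and 0 positive, against 13.2% of all genes in either direction. Pcolce2 stood at 12.8 and 6.83 CPM in Mr1-/- PBS and 24.7 CPM in Mr1-/- PD fluid, and Lox at 19, 10.2 and 21.8 CPM. In both genes the Mr1-/- PD fluid sample lay above its PBS samples and below the 3 Mr1+/+ PD fluid samples.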

How the data were processed

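RNA of mouse peritoneum was poly-A selected, fragmented and copied with random primers, with no strand-marking step named, per the labels' protocols. The authors deposited 1 table of raw read counts per gene symbol for 10 libraries. The reads were set against mm10, per the submitters' processing notes, while which aligner, counting tool or annotation served is not given in the sources used here. The 21899 entries were summed to 21877 symbols. All collagen symbols matched GENCODE M21 (mm10), which gave positions and transcript lengths, and promoters came from RefSeq (GRCm38.p6), where 35 of 44 matched.

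Near-identical libraries were summed, which left 8 samples. Genes were kept by filterByExpr, scaled by TMM and fitted over all 4 groups with edgeR 4.0.16 (R 4.3.3), using its robust quasi-likelihood test with Benjamini-Hochberg adjustment over all 15385 genes kept. SE is the absolute log2 fold change divided by the root of F. The fit was tested on simulated data. Alternatives were DESeq2 1.42.0, its size factors, no filter, only the groups compared, 10 separate libraries with and without a replicate block, and each library left out.

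Collagen genes are named with full statistics where called in any comparison, among the 10 highest per kilobase or part of a chain ratio, and otherwise by ranges and counts. Processing genes are named from lists by their adjusted p. The members and lists were chosen with earlier results of these data known.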

Additional observations from a re-analysis of the deposited data

How the results depend on the processing

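In Mr1+/+ the count of collagen genes called for PD fluid ran from 0 to 22 when each library was left out in turn. It was 4 without Mr1+/+ PD fluid replicate 2 and 0 without replicate 3. Without replicate 3, 24 collagen genes were still at an unadjusted p under 0.05, against 23.5% of all genes. The directions of all 21 called genes stayed in both fits, which adds no support, since none of them had overlapping samples. Without Mr1+/+ PD fluid replicate 1 the count was 20, against 14% of all genes. It was 21 to 22 without any one of the Mr1-/- libraries or Mr1+/+ PBS replicates 1 and 2, against 13.3% to 15.3% of all genes. Leaving out Mr1+/+ PBS replicate 3 left that group with 1 sample, the summed pair. Under the other alternatives the count was 22 to 24, against 12.9% to 37.5% of all genes. The fits with 24 took each near-identical pair as 2 samples. For the genotypes under PD fluid the count was 0 in the fit reported, 14 with 10 separate libraries, 12 with DESeq2 and 2 with only the groups compared, and for the difference in response it was 0 and, with 10 separate libraries, 6. The cause was not tested. Every library left out gave 0 in both, as in the 2 comparisons that called 0 throughout (PD fluid in Mr1-/- and the genotypes under PBS). Leaving out replicate 1 or 2 of Mr1+/+ PBS or of Mr1-/- PD fluid kept its near-identical partner, so all 8 samples stayed in those fits. The lone Mr1-/- PD fluid sample was therefore never left out. Under PBS the median genotype difference ran from -0.22 to 0.039 with a library left out, turning positive without Mr1+/+ PBS replicate 3, and that of Col3a1 from -0.77 to 0.10, turning positive without Mr1-/- PBS replicate 2. Over all alternatives the medians ran from 1.03 to 1.34 (PD fluid in Mr1+/+), 0.30 to 0.45 (PD fluid in Mr1-/-), -0.71 to -0.51 (genotypes under PD fluid) and -0.67 to -0.38 (difference in response).

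The 50 most abundant genes of each of the 8 samples were also taken out, except for any collagen genes among them. Col3a1 and Col4a1 were among the 50 in Mr1+/+ PD fluid replicates 2 and 3 and so were kept. Collagen reads then made up 0.348% (Mr1+/+ PBS), 0.895% (Mr1+/+ PD fluid), 0.322% (Mr1-/- PBS) and 0.463% (Mr1-/- PD fluid) of the counts left, as group means. Over 13 same-number pairs of libraries the correlation of deviations ran from -0.13 to 0.15, with 1 over 0.1, and 3 of 10 libraries correlated best with their own number. In a group of 2 libraries the deviations are mirror images of each other, so these values cannot decide whether the replicate numbers pair the libraries. With the replicate number as a block on the 10 libraries the counts were 24 for PD fluid in Mr1+/+, 12 for the genotypes under PD fluid and 9 for the difference in response, against 37.4%, 16.4% and 12.9% of all genes. Few reads stand behind the scarce chains, and Col24a1 and Col25a1 passed the level the filter asks for in 1 sample each.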
